A study of Mus musculus with 37 samples.

Results

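The gene set studied here comprised 8 genes that oocytes use to control their own growth and that of the follicle: the secreted factors Gdf9, Bmp15 and Fgf8, the transcription factors Figla, Nobox, Lhx8 and Sohlh1, and the receptor Kit. They were chosen by symbol, though with earlier results of these data known, and make up 8 of the 29296 gene symbols found in 4 tables of RNA-seq values. All 8 were listed for GV (fully grown, germinal vesicle stage) oocytes of both mutant lines and for CabZ 2-cell embryos, and 7 of them, all except Sohlh1, in the table of injected embryos. Samples came from C57BL/6 mice. ZH KO and CabZ KO oocytes lack Hira or Cabin1, subunits of the chaperone complex that deposits histone H3.3, through deletion of floxed alleles by Zp3-Cre. ZH Het and CabZ Het oocytes carry the same Cre with 1 floxed allele of Hira or Cabin1, so that every oocyte of both lines had the transgene and no group was wild type. Zp3-Cre acts in oocytes that have begun to grow, after the follicle has formed. In the fourth table, wild-type GV oocytes were injected with Zscan4d RNA (Zscan4 OE) or GFP RNA, matured, activated by parthenogenesis and collected at the 2-cell stage. Whether CabZ 2-cell embryos were fertilised or parthenogenetic is not stated for these libraries. There were 4 RNA-seq libraries per group, apart from 3 for Zscan4 OE, and 3 ATAC-seq libraries per genotype of CabZ GV oocytes.

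GDF9 and BMP15 belong to the TGF-beta family, are secreted by the oocyte and drive the proliferation and specialisation of granulosa and cumulus cells, and FGF8 acts with BMP15 on cumulus cell metabolism. SOHLH1 (basic helix-loop-helix), LHX8 (LIM homeodomain), NOBOX (homeodomain) and FIGLA (basic helix-loop-helix) act in the youngest follicles, where they switch on oocyte genes such as those of the zona pellucida. KIT is the receptor tyrosine kinase through which the oocyte receives Kit ligand from granulosa cells.

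Regulatory sequence was examined first, because the ATAC-seq data concern the starts of these genes. RefSeq promoter windows of 300 bases (250 before and 50 from the transcription start onward, build GRCm38.p6) were found for 6 of the 8 genes, and not for Gdf9 and Fgf8. Matches on either strand to the E-box CANNTG, bound by basic helix-loop-helix factors such as FIGLA and SOHLH1, to the NOBOX element TAATTG or TAATTA and to the LHX8 site TGATTG are in capitals. The 4 windows shown are those of Bmp15, Figla and Nobox, which carried an ATAC-seq peak at the start of the gene, and of Sohlh1, which held the most E-boxes.
Bmp15 (chrX:6320675-6320974, minus strand): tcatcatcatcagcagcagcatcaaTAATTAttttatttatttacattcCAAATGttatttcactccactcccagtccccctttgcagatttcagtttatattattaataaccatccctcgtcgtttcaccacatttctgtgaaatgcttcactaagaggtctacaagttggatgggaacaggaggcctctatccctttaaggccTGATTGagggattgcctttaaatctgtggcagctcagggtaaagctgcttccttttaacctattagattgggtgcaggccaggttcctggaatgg
Figla (chr6:86016941-86017240, plus strand): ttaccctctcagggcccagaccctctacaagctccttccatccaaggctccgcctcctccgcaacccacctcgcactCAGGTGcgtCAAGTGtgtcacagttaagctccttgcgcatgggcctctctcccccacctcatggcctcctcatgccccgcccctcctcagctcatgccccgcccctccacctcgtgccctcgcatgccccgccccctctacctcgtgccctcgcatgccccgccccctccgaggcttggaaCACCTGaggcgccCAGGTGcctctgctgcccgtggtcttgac
Nobox (chr6:43309505-43309804, minus strand): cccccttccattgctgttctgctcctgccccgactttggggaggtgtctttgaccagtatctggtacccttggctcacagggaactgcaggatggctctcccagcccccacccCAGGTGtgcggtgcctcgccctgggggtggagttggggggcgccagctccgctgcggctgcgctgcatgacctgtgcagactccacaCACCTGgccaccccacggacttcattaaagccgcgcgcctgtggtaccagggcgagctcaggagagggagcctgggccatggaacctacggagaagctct
Sohlh1 (chr2:25847199-25847498, minus strand): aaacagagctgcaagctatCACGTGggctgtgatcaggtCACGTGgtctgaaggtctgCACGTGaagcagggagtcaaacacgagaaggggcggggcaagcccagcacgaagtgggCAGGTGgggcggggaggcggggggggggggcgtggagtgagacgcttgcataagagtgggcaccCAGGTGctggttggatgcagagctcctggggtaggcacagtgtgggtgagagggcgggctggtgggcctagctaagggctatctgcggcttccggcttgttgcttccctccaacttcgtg
The Bmp15 window held 1 match to each of the 3 motifs, with the TAATTA at -225, the E-box at -201 and the TGATTG at -45 relative to the start. An E-box occurred in 72.3% of all 32851 windows of this length, a NOBOX element in 12.4% and a TGATTG in 14.0%. The Sohlh1 window held 5 E-boxes, and at least as many were found in 2.10% of windows. Of these 5, the 3 at -231, -211 and -192 were the palindrome CACGTG, which occurred at least 3 times in 0.0883% of windows. Figla had 4 E-boxes and Nobox had 2, and at least as many were present in 6.49% and 39.6% of windows. The RefSeq start of Figla lies 1020 bp inside the gene as the tables delimit it, so the Figla window is not the region tested for peaks. Of the windows not shown, Kit held 1 E-box and Lhx8 no match. These matches are letters in a window and do not show that a factor was bound.

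In the tables (GRCm38), the genes span chr11:53431023-53437904 (Gdf9), chrX:6314107-6320721 (Bmp15), chr19:45736798-45742915 (Fgf8), chr6:86016171-86020996 (Figla), chr6:43303674-43309554 (Nobox), chr3:154306294-154330659 (Lhx8), chr2:25842995-25847248 (Sohlh1) and chr5:75574916-75656722 (Kit). None overlaps another gene in GENCODE M21, on either strand. Levels are given as FPKM over the gene span, introns included, and differences (KO minus Het or Zscan4 OE minus GFP) as log2(FPKM + 1), which understates changes of low genes. Testing used limma across each table and covered genes whose mean reached 1 FPKM. They are called higher or lower at a Benjamini-Hochberg adjusted p under 0.05 together with a fold change above 2. The values rest on 5815413 to 21797262 reads on genes per library. Each library was described as a pool of oocytes in the methods and as individual cells in the sample records, so p-values measure the spread between libraries, and fewer cells and less RNA per cell cannot be told apart.

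The labels were checked on the manipulated genes. Cabin1 was at 0.0125 to 0.0482 FPKM in CabZ KO GV oocytes and 0.0891 to 0.159 FPKM in CabZ Het. In 2-cell embryos it was at 0.0640 to 0.181 FPKM in KO and 0.229 to 0.455 FPKM in Het. Cabin1 was also lower without overlap in ZH KO oocytes, at 0.0640 to 0.102 FPKM against 0.259 to 0.346 FPKM in ZH Het, and so was Hira in CabZ KO 2-cell embryos, with 8 to 32 reads against 143 to 199 reads in CabZ Het. In these comparisons the gene not named in the label therefore differed too. Cabin1 was also apart in injected embryos, at 0.143 to 0.313 FPKM in Zscan4 OE and 0.0634 to 0.0984 FPKM in GFP. Hira had 0 to 13 reads in ZH KO and 2 to 14 reads in ZH Het libraries, too few to tell the groups apart. Zscan4d was at 70.3 to 84.3 FPKM in the embryos labelled Zscan4 OE and 69.4 to 149 FPKM in the embryos labelled GFP, so its level at this stage did not set them apart. Markers of the oocyte summed to 2988 to 6425 FPKM in GV libraries. Of the granulosa and cumulus cell markers, 21 of 22 were listed in the ZH table, and they summed to 3.52 to 4.88 FPKM in ZH KO and 2.86 to 3.21 FPKM in ZH Het oocytes. The 2 ranges did not overlap. Esr2 had the highest mean of these markers in both groups but was lower in KO, at 1.72 FPKM against 2.43 FPKM in Het, also without overlap. The higher sum in KO therefore came from the other markers. Of the 21, 19 had a mean under 1 FPKM in KO and 20 in Het. Amhr2, Inhbb and Ptx3 were at 0 in every Het library, and Foxl2 and Has2 at 0 in every KO library. The part of these markers in the differences was not tested. The 6 listed theca, stromal and blood cell markers summed to at most 0.310 FPKM in any ZH library, and the 3 listed in the CabZ GV table to at most 0.431 FPKM.

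In ZH KO GV oocytes, the secreted factor Bmp15 fell more than any other gene of the set, Fgf8 and Nobox were also lower, and Figla was higher. Gdf9 and Lhx8 had lower means without meeting the criteria, and Sohlh1 went from almost no reads to a low level. Thus 3 of the 6 genes tested were called lower and 1 was called higher. Over all 5792 genes tested, 7.2% were called lower and 10.5% higher.

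Bmp15 was at 336, 470, 455 and 305 FPKM in the 4 ZH Het libraries and at 58.1, 97.9, 131 and 71.2 FPKM in the 4 ZH KO libraries. Every KO library was therefore below every Het library. The means were 89.6 ± 32.3 FPKM in KO and 391 ± 83.6 FPKM in Het (SD, n = 4), a log2 difference of -2.16 ± 0.26 (SE; limma, adjusted p = 0.000152). Fgf8 was at 19.2, 16.6, 14.6 and 16.8 FPKM in ZH Het and at 4.96, 6.65, 7.93 and 6.45 FPKM in ZH KO oocytes, again without overlap. Its log2 difference was -1.25 ± 0.15 (SE; limma, adjusted p = 0.000156). Gdf9, by contrast, was at 324, 325, 335 and 355 FPKM in Het and at 106, 346, 261 and 160 FPKM in KO oocytes. The Het libraries lay close together, whereas the KO libraries spread more than 3-fold and overlapped them. The log2 difference of Gdf9 was -0.75 ± 0.31 (SE; limma, adjusted p = 0.0672), and without KO replicate 2 it was -1.02 with an adjusted p of 0.010, past both thresholds. The other 7 fits with 1 library left out did not call it, and without KO replicate 1 the difference shrank to -0.46 (limma, adjusted p = 0.131).

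Among the transcription factors, Nobox, which activates Gdf9, Bmp15 and other oocyte genes, was at 134, 124, 95.8 and 99.7 FPKM in ZH Het and at 13.8, 68.1, 94.4 and 23.3 FPKM in ZH KO oocytes. The highest KO library came close to the lowest Het library without reaching it. The log2 difference was -1.53 ± 0.51 (SE; limma, adjusted p = 0.0306), and the call was lost in 6 of the 8 fits with 1 library left out (adjusted p 0.0507 to 0.0849 in these). Lhx8 was at 3.89, 3.96, 3.32 and 2.88 FPKM in Het and at 0.845, 2.09, 2.36 and 1.28 FPKM in KO oocytes, without overlap. Its log2 difference of -0.80 ± 0.20 (SE; limma, adjusted p = 0.00761) was under the fold threshold. Figla, the activator of the zona pellucida genes, went the other way. It was at 5.66, 5.57, 7.29 and 8.06 FPKM in Het and at 16.5, 12.5, 13.1 and 15.1 FPKM in KO oocytes, a log2 difference of 1.01 ± 0.15 (SE; limma, adjusted p = 0.000557). This lies at the fold threshold: the difference was 0.87 after median scaling and 0.96 after quantile normalization, with adjusted p of 0.000739 and 0.000725.

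Sohlh1, a regulator of oocytes in primordial follicles, was below the mean of 1 FPKM needed for the fit. It had 1, 0, 1 and 1 reads in the 4 ZH Het libraries and 52, 159, 36 and 60 reads in the 4 ZH KO libraries, or 0.638 to 2.33 FPKM in KO. All KO libraries were thus above all Het libraries. Per read counted on genes, the 307 reads in KO and 3 in Het gave a ratio of 124 (exact 95% interval 41.9 to 603, counting error only), and the two-sided exact permutation test on log2(FPKM + 1) gave p = 0.0286, the smallest that 4 libraries against 4 allow. With no filter on low values its log2 difference of 1.06 was called (limma, adjusted p = 0.0133). Kit, also under the filter, was at 0.743 to 1.29 FPKM in Het and 0.488 to 0.596 FPKM in KO oocytes, without overlap (log2 difference -0.33, two-sided exact permutation test, p = 0.0286). Groups did not overlap for 5 of the 6 tested genes, against 46.9% of all genes tested, and for both genes under the filter.

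**Figure D1:**
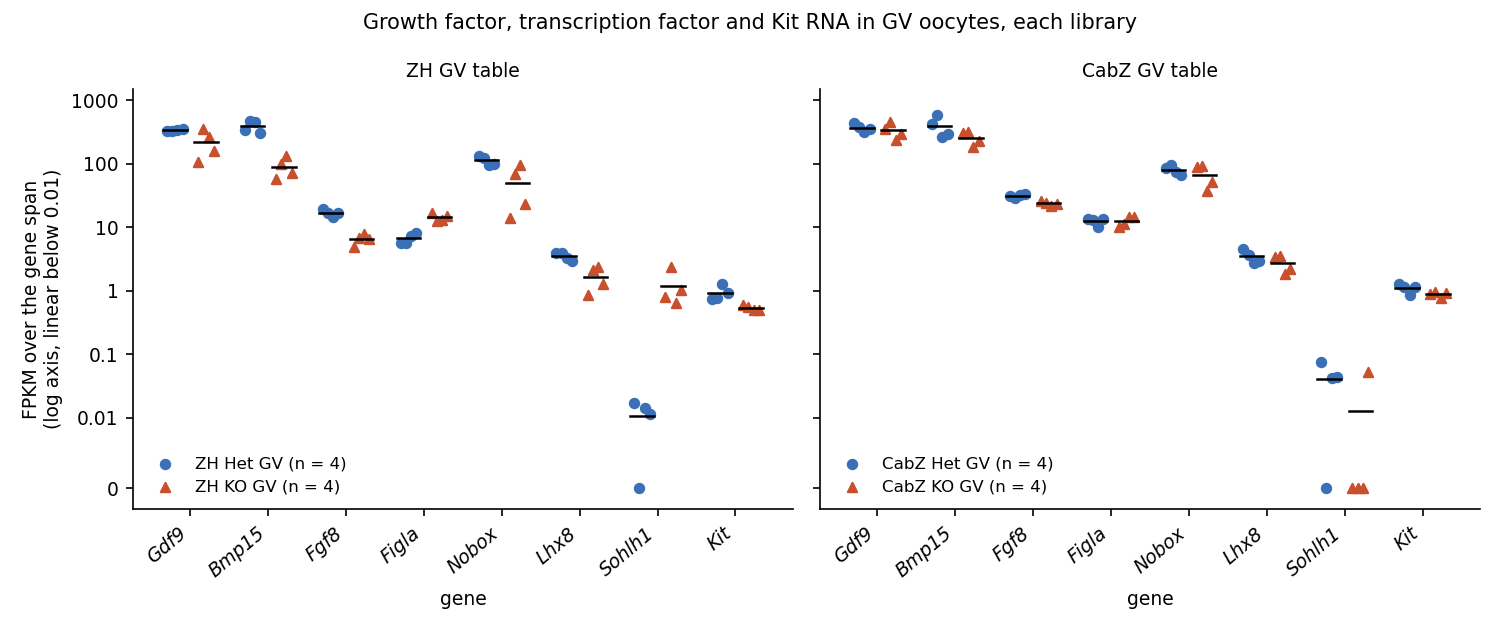
FPKM of the 8 genes (x axis) in each GV oocyte library on a log axis that is linear below 0.01 FPKM, for the ZH table (left) and the CabZ table (right). Circles are Het and triangles KO libraries, and black lines are group means. Bmp15, Fgf8 and Nobox lie lower and Figla and Sohlh1 higher in ZH KO than in ZH Het, and in the CabZ table Fgf8 is the gene whose groups are apart.

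The level of the genes relative to each other also shifted. On a scale of reads per kilobase of exon and per 1000000 reads on listed genes, the order in ZH Het oocytes was Gdf9 (1522), Bmp15 (1135), Nobox (445), Fgf8 (102), Figla (51.5), Lhx8 (45.4), Kit (11.5) and Sohlh1 (0.0472). Neighbours in this order did not share values, with the exception of Figla and Lhx8, whose libraries overlapped. In ZH KO oocytes Figla (123) stood above Fgf8 (43.8), and Bmp15 (288) overlapped Nobox (216), which in turn overlapped Figla. Kit (7.27) and Sohlh1 (5.88) overlapped as well. Listed genes held 74.2 to 74.7% of the total behind FPKM in ZH Het and 66 to 68.2% in ZH KO libraries. This scale therefore places KO higher relative to Het than FPKM does, and the order is read within each group.

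ZH KO replicates 1 and 4 held the lowest values of Gdf9, Bmp15, Fgf8, Nobox and Lhx8 and the highest values of Figla. The same replicates had the highest summed 2-cell markers, 357 and 412 FPKM against 274 and 278 FPKM in replicates 2 and 3. Their summed oocyte markers were 2988 and 3397 FPKM against 3354 and 3688 FPKM. Their part in the differences was not tested. In CabZ KO GV oocytes, replicates 3 and 4 held the lowest values of the same 5 genes and the highest of Figla, and their summed 2-cell markers were 298 and 258 FPKM against 225 and 256 FPKM in replicates 1 and 2. Over the 16 GV libraries of both lines, with each group's mean of log2(FPKM + 1) removed, Pearson's r was 0.89 between Gdf9 and Nobox, 0.90 between Lhx8 and Nobox and 0.83 between Bmp15 and Lhx8. Figla had r of -0.64 with Nobox and -0.61 with both Fgf8 and Lhx8. Between Gdf9 and Lhx8 r was 0.85, between Bmp15 and Nobox 0.76 and between Fgf8 and Nobox 0.75. The weakest pairs were Bmp15 and Fgf8 (r of 0.28), Bmp15 and Figla (-0.35) and Figla and Gdf9 (-0.44). These are descriptions of libraries that share stage and protocol, chosen after the values were seen. With table means removed instead, the genes most like Gdf9 among 5332 were Padi6 (r = 0.957) and Mtmr14 (r = 0.955), and Gdf9 and Nobox had r = 0.929. The closest were C86187 (r = 0.984) and Cmtr2 (r = 0.973) for Bmp15, Ninj1 (r = 0.986) and Upp1 (r = 0.978) for Fgf8, and Asb8 (r = 0.985) and Ccdc115 (r = 0.983) for Nobox. For Figla they were Cox6c (r = 0.976) and Gm11808 (r = 0.974), and for Lhx8 Uba1 (r = 0.976) and Rab3d (r = 0.970). With table means removed, 11 of the 5332 genes had a higher r with Gdf9 than Nobox had, and 97 a higher one than Lhx8. For Bmp15, 136 genes exceeded Lhx8, 454 Nobox and 830 Gdf9. Nobox was exceeded by 55 genes for Lhx8 and by 849 for Fgf8. Each count includes the gene itself. Many genes thus varied with these members as closely, and no such count was made with group means removed.

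In CabZ KO GV oocytes none of the 6 genes tested met the criteria, and over all 6339 genes tested 2.07% were called higher and 0.836% lower. Groups were apart for 1 of the 6 genes, against 20.6% of all genes tested. This gene was Fgf8, at 30.8, 28.6, 32.2 and 33.6 FPKM in CabZ Het and 25.9, 24.4, 21.3 and 22.8 FPKM in CabZ KO oocytes. The log2 difference was -0.39 ± 0.10 (SE; limma, adjusted p = 0.0294), under the fold threshold. The adjusted p was above 0.05 in 5 of the 8 fits with 1 library left out (0.0665 to 0.0952). Bmp15 was at 429, 587, 262 and 291 FPKM in Het and 300, 319, 181 and 231 FPKM in KO oocytes. The groups overlapped, and the log2 difference of -0.56 had a 95% confidence interval of -1.16 to 0.03 (adjusted p = 0.213). In the ZH line the interval of the same gene was -2.73 to -1.59. The difference between the lines was not tested, because their tables were normalized separately.

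Gdf9 had means of 336 ± 92.6 FPKM in CabZ KO and 370 ± 52.9 FPKM in CabZ Het oocytes (SD, n = 4), a log2 difference of -0.17 (95% confidence interval -0.60 to 0.26). For Nobox, at 37.3 to 91.6 FPKM in KO and 65.7 to 94.0 FPKM in Het, the interval was -0.93 to 0.27. Lhx8 had an interval of -0.68 to 0.15 and Figla one of -0.30 to 0.34 around a difference of 0.02. Figla was at 10.2 to 14.7 FPKM in KO and 10.2 to 13.5 FPKM in Het oocytes, and the sign of its difference turned when Het replicate 3 or KO replicate 3 or 4 was left out. Sohlh1, which had reads in every ZH KO library, had 0, 0, 0 and 2 reads in the CabZ KO and 4, 0, 2 and 2 reads in the CabZ Het libraries. Kit was at 0.759 to 0.970 FPKM in KO and 0.869 to 1.28 FPKM in Het (two-sided exact permutation test, p = 0.114).

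Chromatin at the gene starts was covered by ATAC-seq peak lists of CabZ GV oocytes, in which the authors called peaks library by library. A gene was counted when a peak overlapped its start by at least 1 bp within 500 bp on either side. In the 3 CabZ Het libraries this held for 0, 4 and 4 of the 8 genes, and in the 3 CabZ KO libraries for 3, 2 and 3. The libraries differed widely in the number of peaks, from 43399 to 111327 in Het and from 19160 to 46070 in KO. Over all 19033 genes of the CabZ GV table, 11%, 22.1% and 39.4% had such a peak in the Het libraries and 16.7%, 5.32% and 6.88% in the KO libraries. No test between genotypes was made, because the number of peaks called differed this much between libraries of 1 genotype, and a two-sided exact permutation test of 3 libraries against 3 cannot reach a p of 0.05.

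The peaks fell on the same 4 genes. Gdf9 had a peak in 2 of 3 Het and 3 of 3 KO libraries, at a fold enrichment over the genome background of 4.36 and 5.28 in Het and 4.68, 4.95 and 5.41 in KO. The summits lay from 80 bp upstream to 578 bp downstream of the start. The start of Uqcrq, a gene of the opposite strand that encodes a subunit of mitochondrial complex III, lies next to that of Gdf9, so its promoter falls in the same window. Figla likewise had a peak in 2 Het and 3 KO libraries, at 4.36 and 5.28 and at 5.62, 5.85 and 4.43. Nobox had one in 2 Het libraries and 1 KO library (4.36 and 4.98 against 3.94), as did Bmp15 (4.73 and 3.52 against 5.15). Fgf8, Lhx8, Sohlh1 and Kit had no peak in this window in any library, which in lists of called peaks does not show that the chromatin was closed. At a -log10 q of at least 5, a mean of 1 gene remained in Het libraries and none in KO. The peaks that remained, at Gdf9 and Figla (6.46 each) and Nobox (5.76), all came from Het replicate C, the library with 111327 peaks. The other Het libraries had none, as in KO. Within 2000 bp on either side of the start, Fgf8 had a peak in 2 Het libraries and 1 KO library, Lhx8 and Kit in 1 Het library each, and Sohlh1 in none.

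**Figure D2:**
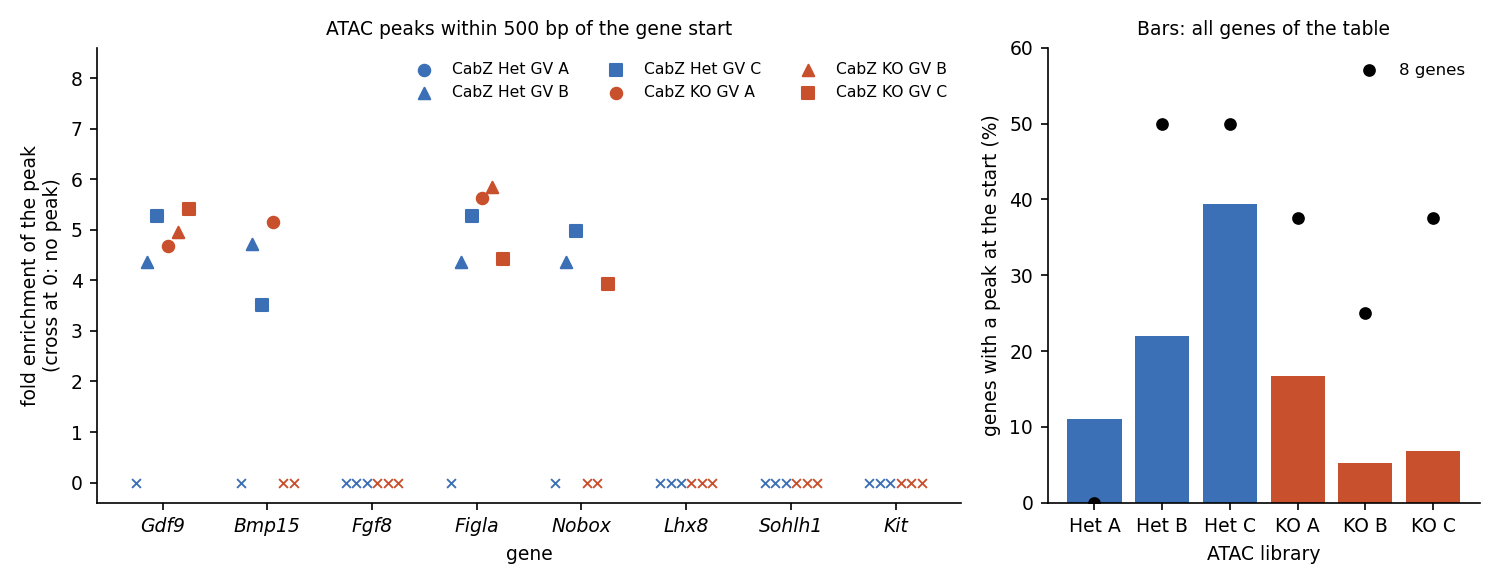
Left, fold enrichment of the ATAC-seq peak at each gene's start in 6 libraries of CabZ GV oocytes, with crosses at 0 where no peak was called. Right, share of all genes of the CabZ GV table (bars) and of the 8 genes (points) with a peak, by library. Gdf9 and Figla have a peak in 5 of 6 libraries each, and the share of all genes runs from 5.32 to 39.4%.

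In CabZ 2-cell embryos, Gdf9, Bmp15 and Fgf8, the 3 secreted factors, were higher in CabZ KO than in CabZ Het embryos, and the transcription factors Nobox and Figla had higher means. Of the 4 genes tested 3 were called higher and 0 lower. Over all 7798 genes tested 16.9% were called higher and 20.4% lower, but 1 of the 3 calls, Fgf8, entered the test only through its level in KO embryos, so the count is not read against these shares. With a filter of 5 FPKM 2 members were called. The median difference of all genes tested was -0.11. Set side by side with the GV table, which was normalized separately, mean Gdf9 was 11.2 FPKM in Het embryos and 370 FPKM in Het oocytes.

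Gdf9 was at 10.6, 10.2, 9.83 and 14.1 FPKM in the 4 CabZ Het embryo libraries and at 58.6, 24.6, 32.2 and 77.7 FPKM in the 4 CabZ KO libraries. No KO value lay within the Het range. The log2 difference was 1.89 ± 0.34 (SE; limma, adjusted p = 0.00161). Bmp15 was at 46.9, 29.1, 28.3 and 43.7 FPKM in Het and 76.6, 96.7, 91.4 and 154 FPKM in KO embryos, a log2 difference of 1.46 ± 0.27 (SE; limma, adjusted p = 0.00170). Fgf8 had 26, 2, 10 and 15 reads in Het and 75, 103, 66 and 178 reads in KO libraries, which correspond to means of 0.269 ± 0.206 and 2.87 ± 1.47 FPKM (SD, n = 4). It passed the filter only through its level in KO embryos, and its log2 difference was 1.55 ± 0.26 (SE; limma, adjusted p = 0.00116). Groups were apart for these 3 of the 4 tested genes and for 51% of all genes tested. Because of the way Fgf8 entered the test, this count is not read against that share either.

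KO replicate 4 had the highest Gdf9, Bmp15 and Fgf8 and stood apart in its markers. Its oocyte markers summed to 2924 FPKM, against 1251 to 1596 FPKM in the other KO libraries and 1670 to 2040 FPKM in Het. Its 2-cell markers summed to 585 FPKM, against 1168 to 1259 FPKM in the other KO libraries and 333 to 708 FPKM in Het. Most of the oocyte sum was Dppa3, with means of 1231 FPKM in KO and 1634 FPKM in Het beside median sums of 1427 and 1737 FPKM. Of the 14 oocyte markers tested, 12 had a difference above 0 and 2, Dppa3 among them, below. The part of these markers in the differences was not tested. Without KO replicate 4 the differences were 1.62 for Gdf9, 1.26 for Bmp15 and 1.32 for Fgf8, all still called (limma, adjusted p 0.00274, 0.00313 and 0.00142). Nobox was at 1.99, 1.60, 1.34 and 1.34 FPKM in Het and 6.87, 1.95, 3.81 and 4.41 FPKM in KO embryos. Its log2 difference of 0.96 ± 0.28 (SE; limma, adjusted p = 0.0165) was under the fold threshold, and was 1.12 and called after median scaling, which raised the median difference of all genes from -0.11 to 0.06. Without KO replicate 2 it was 1.21 and without Het replicate 1 it was 1.03, both called. The other 6 fits with 1 library left out did not call it and gave 0.73 (without KO replicate 1) to 0.97.

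The other 4 genes were under the filter. Figla was at 0, 0.678, 0.0779 and 0.780 FPKM in Het and at 1.17, 1.95, 0.982 and 1.35 FPKM in KO embryos, and Lhx8 at 0.0823 to 0.204 and 0.236 to 0.402 FPKM. Neither overlapped between groups (two-sided exact permutation test, p = 0.0286 for each). Sohlh1 was erratic within both groups, with 23, 0, 2 and 25 reads in Het and 31, 0, 0 and 2 reads in KO libraries, and Kit was at 0.395 to 0.755 and 0.579 to 0.83 FPKM (exact p = 0.914 and 0.171). Haemoglobin RNA was present in these libraries, with means of 133 FPKM in KO and 115 FPKM in Het for Hba-a2. The 11 listed markers of theca, stromal and blood cells summed to 84.8 to 297 FPKM in KO and 146 to 237 FPKM in Het embryos, and their part in the differences was not tested. On the scale of reads per kilobase of exon and per 1000000 reads on listed genes, Bmp15 (80.0) and Gdf9 (37.9) stood above the other genes in Het embryos. Kit (5.29) and Nobox (4.59) came next and overlapped. In KO embryos Bmp15 (226) and Gdf9 (164) overlapped, and Fgf8 (13.0) stood next, overlapping Nobox (12.5).

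**Figure D3:**
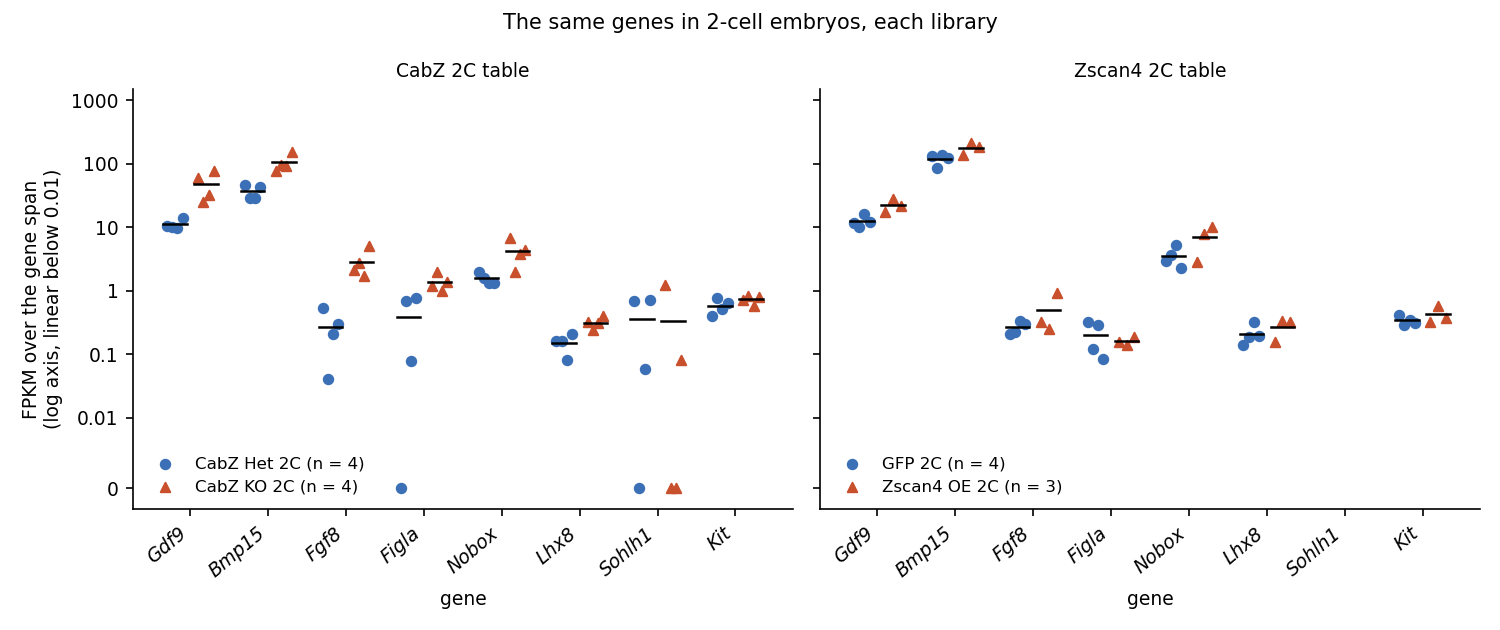
FPKM of the same genes (x axis) in each 2-cell embryo library, on a log axis that is linear below 0.01 FPKM, for CabZ embryos (left) and embryos from injected oocytes (right). Circles are Het or GFP and triangles KO or Zscan4 OE libraries, and black lines are group means. Gdf9, Bmp15 and Fgf8 are higher in every CabZ KO library than in any CabZ Het library. Sohlh1 was not listed in the table on the right.

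In embryos from injected oocytes, none of the 3 genes tested was called. Over all 4293 genes tested, 0.0233% were called higher and 1.42% lower. Gdf9 was at 11.7, 10.1, 16.3 and 12.2 FPKM in the GFP libraries and at 17.3, 28.2 and 21.9 FPKM in the Zscan4 OE libraries. The groups did not overlap, but the log2 difference of 0.78 ± 0.21 did not pass the adjustment (SE; limma, adjusted p = 0.109). Bmp15 was at 134, 87.0, 136 and 122 FPKM with GFP and 137, 211 and 184 FPKM with Zscan4 OE, with a log2 difference of 0.56 and a 95% confidence interval of 0.07 to 1.05 (limma, adjusted p = 0.212). Groups were apart for these 2 of the 3 genes, against 18.2% of all genes tested. Nobox, at 2.3 to 5.24 FPKM with GFP and 2.81 to 10.2 FPKM with Zscan4 OE, had an interval of -0.12 to 1.55. Fgf8, Figla, Lhx8 and Kit were under the filter, with means between 0.160 and 0.491 FPKM in Zscan4 OE and between 0.203 and 0.340 FPKM in GFP embryos, and all 4 overlapped between groups.

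**Figure D4:**
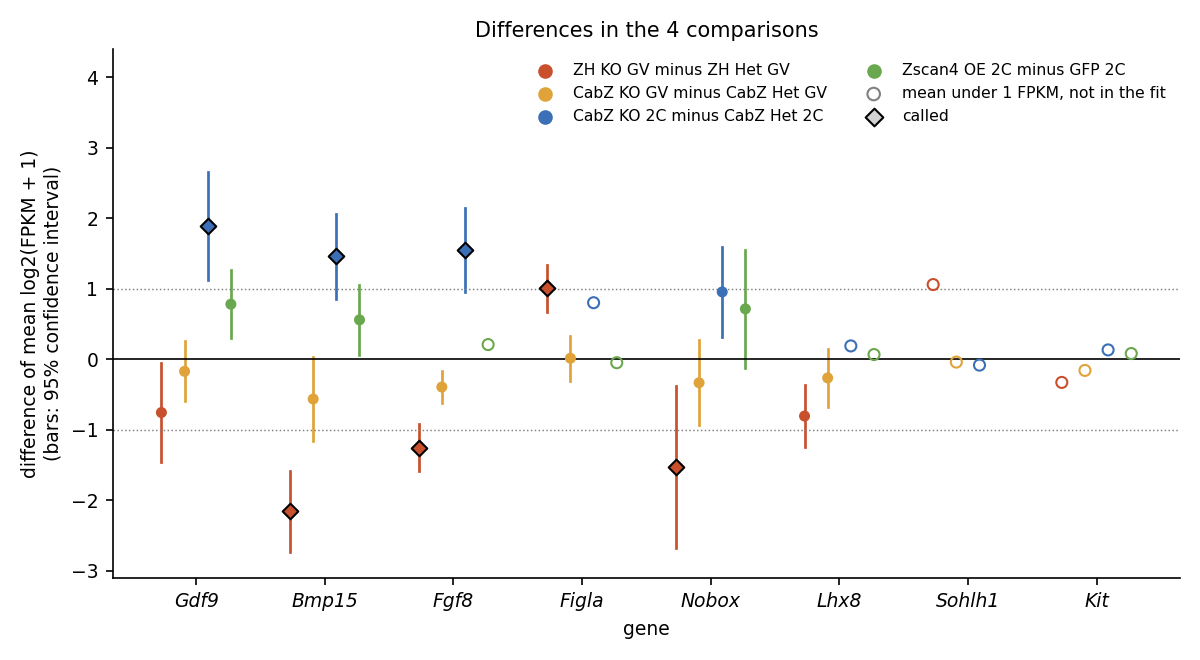
Difference of mean log2(FPKM + 1) for the 8 genes (x axis) in the 4 comparisons, with 95% confidence intervals. Diamonds are called, filled circles were tested and not called, and open circles had a mean under 1 FPKM and were not in the fit. Bmp15 runs from -2.16 in ZH KO oocytes to 1.46 in CabZ KO embryos, and Fgf8 from -1.25 to 1.55.

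Genes that act with these factors were followed as lists. Of 22 targets and partners of the transcription factors, 15 were tested in ZH oocytes. Of these, 4 were called lower (all genes tested, 7.2%) and 0 higher (10.5%), with a median difference of -0.73 (all genes tested, -0.04). Those called were Oosp1, an oocyte-secreted protein gene (6.42 FPKM in KO and 27.7 FPKM in Het, log2 difference -1.96), Zar1, needed for the oocyte-to-embryo transition (79.4 and 174 FPKM, -1.24), Mos, the kinase that holds mature oocytes in metaphase (191 and 412 FPKM, -1.12), and Dnmt1, the maintenance DNA methyltransferase (3.27 and 8.13 FPKM, -1.09; limma, adjusted p 3.02e-05 to 0.0226). The zona pellucida genes Zp1, Zp2 and Zp3, known targets of FIGLA, had differences of -0.75, -0.73 and -0.38 and were not called, while Figla itself was higher. In CabZ GV oocytes 0 of 16 tested were called (all genes tested, 2.07% higher and 0.836% lower). The median was -0.18 (all genes tested, -0.02), and Padi6 differed most (82.8 and 118 FPKM, -0.53). In CabZ 2-cell embryos 7 of 14 were called higher (all genes tested, 16.9%) and 0 lower (20.4%), with a median of 0.98. The 4 largest differences were those of Mos (17.3 FPKM in KO and 1.65 FPKM in Het, 2.92), Ooep (228 and 33.9 FPKM, 2.64), Zar1 (10.1 and 2.32 FPKM, 1.70) and Oosp2 (9.34 and 2.27 FPKM, 1.64; limma, adjusted p 0.000378 to 0.00263). None of 14 was called in Zscan4 OE embryos (all genes tested, 0.0233% higher and 1.42% lower). There the median was 0.20 and Oosp1 differed most (49.6 FPKM in Zscan4 OE and 86.0 FPKM in GFP, -0.78; limma, adjusted p = 0.0691).

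Oocyte markers, of which 10 of 15 are also in that list, gave 5 of 14 lower in ZH oocytes (median -0.83), where 7.2% of all genes tested were lower. They gave 0 of 14 in CabZ GV oocytes (median -0.26). In CabZ embryos 6 of 14 were higher (median 0.94), where 16.9% of all genes tested were higher. Markers called in ZH oocytes included the maternal complex genes Tle6 (49.4 FPKM in KO and 96.9 FPKM in Het, -1.30) and Khdc3 (161 and 344 FPKM, -1.12). Those called in CabZ embryos included H1foo, the oocyte linker histone (49.4 and 10.8 FPKM, 2.03), and Dazl, a germ cell RNA-binding protein (37.5 and 10.3 FPKM, 1.88). The 2-cell markers were 6 of 7 higher in ZH oocytes, led by Gm5039 (34.9 FPKM in KO and 0.669 FPKM in Het, 4.35), Zscan4c (38.9 and 1.19 FPKM, 4.17), Zscan4d (59.0 and 2.57 FPKM, 3.99) and Usp17lc (6.97 and 0.0334 FPKM, 2.73). Over all genes tested in ZH oocytes, 10.5% were called higher. Gm5039, Usp17lc and Eif1a entered the test only through their level in KO oocytes, so the count is not read against this share. In CabZ GV oocytes 2 of 5 markers tested were higher (all genes tested, 2.07%), Gm5039 (16.6 and 1.40 FPKM, 2.87) and Zscan4d (11.3 and 3.71 FPKM, 1.33). In CabZ embryos 3 of 14 were higher (all genes tested, 16.9%) and 4 lower (20.4%), so neither count stood far from these shares. Gm5039 (165 and 20.8 FPKM, 2.92), Gm8300 (176 and 28.9 FPKM, 2.52), Tdpoz4 (2.37 and 12.6 FPKM, -2.02) and Tdpoz2 (4.01 and 17.6 FPKM, -1.97) were furthest from 0. In Zscan4 OE embryos 1 of 13, Tdpoz1, was lower (0.487 and 2.99 FPKM, -1.43; limma, adjusted p = 0.00895), and 1.42% of all genes tested were. Tdpoz1 passed the filter only through its level in GFP embryos.

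Around Fgf8, the FGF list showed Spry1 and Spry4, feedback inhibitors that FGF signalling induces, lower in ZH KO oocytes. Spry1 was at 3.58 FPKM in KO and 13.2 FPKM in Het (log2 difference -1.76; limma, adjusted p = 0.00179) and Spry4 at 4.69 and 10.6 FPKM (-1.08; adjusted p = 0.00630). The endocrine ligand Fgf21 rose from 0.0189 FPKM in Het to 31.1 FPKM in KO oocytes (4.83; limma, adjusted p = 5.82e-06). Fgf21 passed the filter only through its level in KO oocytes. Beside Fgf8, none of this list met both criteria in the other 3 comparisons. Spry1 had a difference of -0.69 in CabZ GV oocytes (adjusted p = 0.0158) and 0.91 in CabZ embryos (adjusted p = 0.00639), each under the fold threshold.

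Of the 24 genes that process or receive GDF9 and BMP15 signals, 2 were tested in each GV table and 1 in each 2-cell table, and the others were under 1 FPKM or not listed. Tgfb2, a ligand of the same family, was called higher in CabZ KO embryos (29.4 FPKM in KO and 9.78 FPKM in Het, 1.52; limma, adjusted p = 0.000366). In GV oocytes it differed by 0.58 in CabZ (adjusted p = 0.0124) and by -0.12 in ZH, neither called. Of the 25 genes from Kit ligand to mTOR, Rps6, a ribosomal protein phosphorylated downstream of mTOR, was called lower in CabZ KO embryos (9.08 and 36.2 FPKM, -1.92; limma, adjusted p = 0.000404). No other gene of this list was called in any comparison. Rheb, an activator of mTOR, had the largest difference in ZH oocytes (0.40) and CabZ GV oocytes (0.04), and Rps6 in Zscan4 OE embryos (-0.42). Kitl itself was at 0.0175 to 0.120 FPKM in the GV libraries. In CabZ embryos it was at 0.244 to 0.513 FPKM in KO and 0.0651 to 0.102 FPKM in Het, without overlap. With injection it was at 0.0957 to 0.113 FPKM in Zscan4 OE and 0.0462 to 0.101 FPKM in GFP embryos, which overlapped. Of the granulosa and cumulus cell markers, 1 or 2 were tested per table and 0 called, the largest difference being that of Amhr2 in CabZ embryos (-0.97). Of the theca, stromal and blood cell markers, Vim was called higher in CabZ KO embryos (5.78 and 2.26 FPKM, 1.07; limma, adjusted p = 0.0173).

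**Figure D5:**
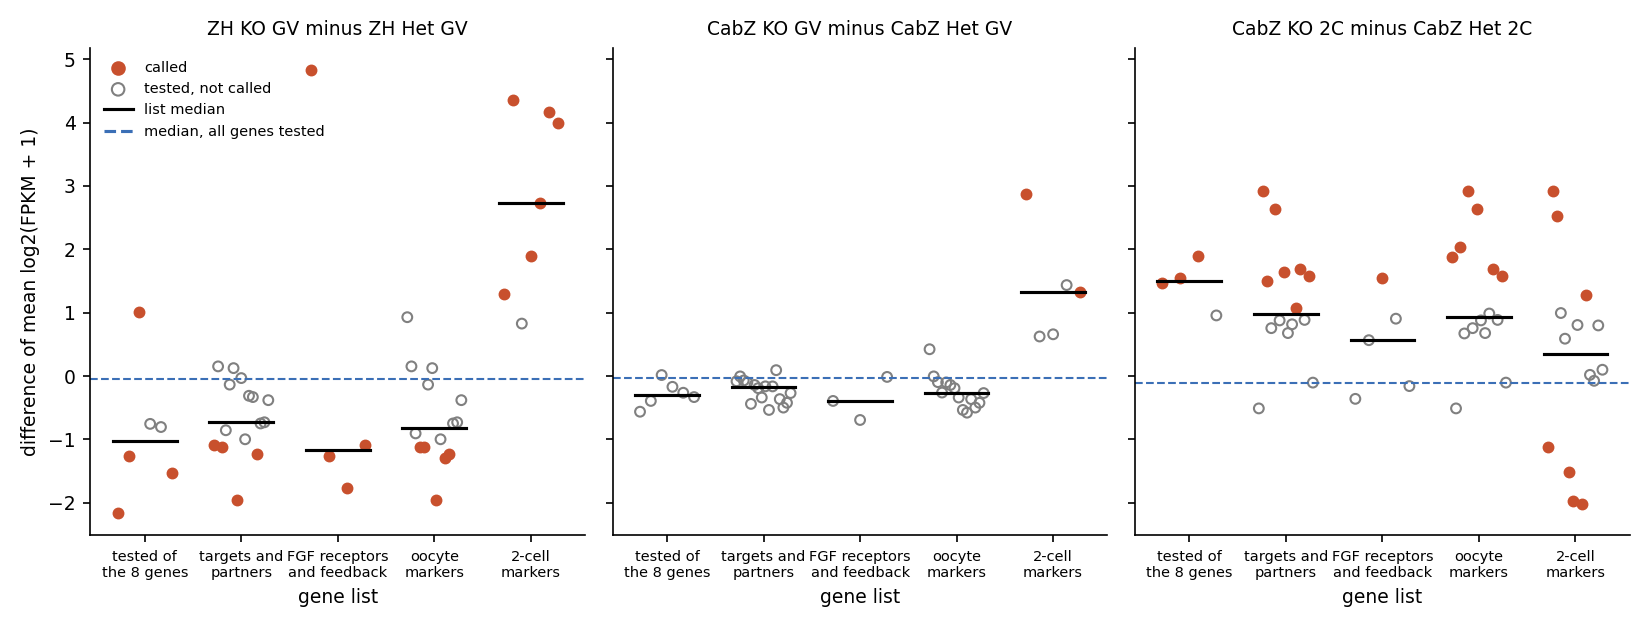
Difference of mean log2(FPKM + 1) for the tested genes of 5 lists (x axis) in ZH GV oocytes, CabZ GV oocytes and CabZ 2-cell embryos. Filled circles are called, open circles are not, black lines are list medians and the dashed line is the median of all genes tested. The medians of the targets and partners are -0.73, -0.18 and 0.98 in the 3 comparisons.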

How the data were processed

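RNA-seq was analysed for 31 libraries of GV oocytes and 2-cell embryos and ATAC-seq for 6 libraries of CabZ GV oocytes. The authors aligned RNA-seq reads with STAR 2.5.3a and quantified genes in Partek, and the deposited tables for ZH oocytes and injected embryos hold FPKM over the gene span (mm10). The deposited CabZ tables hold a score, which equals reads divided by the square of the span with equal library totals and a constant added. FPKM was restored from it by removing the constant, multiplying by the span and rescaling each library. Since these values were no FPKM as first assumed, the test was run on the restored scale. Whole reads were recovered as multiples of the 1-read step (83.1 to 89.2% of low values within 0.1 of a whole number), giving 5815413 to 21797262 reads on genes per library. Depth limits genes with few reads. The exact interval of the Sohlh1 read ratio covers counting error only. Confidence intervals of log2 differences come from limma and rest on the spread between libraries.

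The authors mapped ATAC-seq reads with Bowtie2, removed duplicates, mitochondrial and non-unique reads and called peaks per library with MACS2. The deposited peak lists give a score, a fold enrichment (ratio) and -log10 p and q.

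Differences were tested on log2(FPKM + 1) with limma 3.58.1 (R 4.3.3) within each table, leaving out genes whose mean was under 1 FPKM, with Benjamini-Hochberg adjustment over all genes tested. A call required both an adjusted p below 0.05 and more than a 2-fold difference. Genes under the filter had an exact permutation test, two-sided, also in R. The exact interval of the read ratio came from SciPy 1.17.1. Python 3.11.15 was used for restoring FPKM and for lists, correlations, peaks, promoter windows and figures. On simulated data the test recovered 78% of 3-fold changes among 5792 genes for ZH oocytes, 79% among 6339 for CabZ oocytes, 52% among 7798 for CabZ embryos and 76% among 4293 for injected embryos. The simulation gave all genes of a comparison the same spread (squared coefficient of variation 0.0482, 0.0299, 0.114 and 0.0616). These shares therefore do not give the recovery of members that spread more, such as Nobox in ZH KO oocytes (49.9 ± 37.9 FPKM, SD, n = 4). Groups came from the sample labels, and tests were made only within a table. Correlations over both GV tables had table or group means removed. Same-numbered libraries did not deviate together (r from -0.41 to 0.40 over all tables) and were not paired. The genes named were all 8 members, from each list up to 4 called genes per comparison or else the tested gene with the largest difference, the manipulated genes, and the 2 genes most like each member. Others (the zona pellucida genes, Kitl, and Dppa3 and Hba-a2 in CabZ embryos) were named as background or label checks after their values were seen. The 8 genes and the lists were chosen with earlier results of these data known. Alternatives were pseudocount, filter, scaling, normalization to span, replicate block, fold definition and leaving out each library.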

Additional observations from a re-analysis of the deposited data

Results flagged for a closer look

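Over 55 groups of 4 libraries, 4 held a value whose gap to the nearest library took up most of the range of the group, where chance gives about 1 in 20. Figla was at 10.2 FPKM in CabZ Het GV replicate 3, below the other Het libraries at 13.0 to 13.5 FPKM. Gdf9 was at 14.1 FPKM in CabZ Het 2-cell replicate 4, above the others at 9.83 to 10.6 FPKM. Sohlh1 was at 0.0516 FPKM in CabZ KO GV replicate 4, where the other KO libraries had no read, and at 1.25 FPKM in CabZ KO 2-cell replicate 1, where the others were at 0 to 0.0808 FPKM.

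Fgf8 differed in opposite directions at the 2 stages of the CabZ line. Its log2 difference (KO minus Het) was -0.39 in GV oocytes and 1.55 in 2-cell embryos, with no overlap between genotypes at either stage. In GV oocytes its adjusted p was above 0.05 in 5 of the 8 fits with 1 library left out (0.0665 to 0.0952). The difference between the stages was not tested, because the tables were normalized separately.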

How the results depend on the processing

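Across 354 refits of member differences under the alternatives, 351 kept their direction. Figla in CabZ GV oocytes turned to -0.071 without Het replicate 3, -0.050 without KO replicate 3 and -0.054 without KO replicate 4, and leaving out each library in turn spanned -0.071 to 0.11. In ZH oocytes 1023 genes were called, against 1645 with a pseudocount of 0.1, 578 with a filter of 5 FPKM, 3946 without division by span, 1677 with folds of group means and 3006 with no fold threshold. For CabZ oocytes (184 called) the same settings gave 328, 109, 820, 354 and 883, and the values as deposited gave 10. With no fold threshold 1 member was called there, Fgf8, whose adjusted p was 0.0870 with the replicate block. With that block Bmp15 in CabZ oocytes had an adjusted p of 0.0356 (limma), against 0.213 without it. Its log2 difference of -0.56 was under the fold threshold. In CabZ embryos (2914 called) a filter of 5 FPKM gave 1650, the values as deposited 308, no division by span 7115 and no fold threshold 4376. The 3 members called there became 5 without division by span. On the values as deposited the count was 0 because no member passed the filter, with 871 genes tested. In injected embryos (62 called) no filter gave 5 and the replicate block 2. In the other comparisons the replicate block gave 1016, 184 and 2886 genes and changed no member call. A mean of 2.67 members with an ATAC-seq peak in KO libraries became 0 at -log10 q of at least 5 and 1.67 with summits inside the window. In Het libraries a mean of 2.67 became 1 at this q, all from replicate C.

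Leaving out each library in turn gave 869 to 1152 genes and 2 to 5 members in ZH oocytes, 167 to 220 genes and 0 members in CabZ oocytes, 2680 to 3164 genes and 3 to 4 members in CabZ embryos, and 18 to 100 genes and 0 members in injected embryos. For peaks it gave 2 to 4 members in Het and 2.5 to 3 in KO. Figla in ZH oocytes fell under the fold threshold in 4 of 8 such fits. Lhx8 in ZH oocytes was called with a pseudocount of 0.1 (-1.14), without division by span (-1.17) and with folds of group means (-1.10). Median scaling moved the median of all genes to -0.15 in ZH oocytes and the share of calls that were higher from 59.2 to 46.4%, whereas scaling to the reads of the table gave 72.0%, and in CabZ embryos from 45.3 to 56.8%. The cause was not tested. At an unadjusted p under 0.05 there were 1704 genes in CabZ oocytes and 850 in injected embryos.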
